A study of Mus musculus with 426 samples.

Results

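The cells described here are green fluorescent (GFP+) cells sorted from spleen metastases of mice 2 and 3, set against GFP+ cells sorted from peritoneal metastases of the same 2 mice. They were chosen by the site named in the labels, and a cell entered the RNA results with at least 500 detected genes and 10000 counts, and the DNA results with at least 50000 reads. Of 420 single-cell libraries in the series, 87 belong to these sorts, 40 from spleen and 47 from peritoneum. RNA was kept for 35 spleen and 46 peritoneum cells (18 and 17 spleen cells, 24 and 22 peritoneum cells, of mouse 2 and mouse 3 in that order). DNA was kept for 29 spleen cells (13 and 16) and 39 peritoneum cells (17 and 22), and 67 cells had both.

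All cells came from male C57BL/6 mice that received 50000 KPC1199-EGFP cells in matrigel in the pancreas at 6 to 8 weeks of age, with tumour growth for a further 6 to 8 weeks. KPC1199-EGFP is a single mouse pancreatic tumour line that carries a green fluorescent protein. The host is immunocompetent, so a site holds tumour cells beside host leukocytes, stroma and vessels. GTO, the method used, reads both nucleic acids of 1 cell from a single tube: complementary DNA is amplified first and the genome second, and a read counts as RNA if it lies in an exon and otherwise as DNA. The replicate is the mouse, so each test rests on 2 spleen and 2 peritoneum sums. RNA levels are CPM, counts per 1000000 counts of a library, after TMM scaling of the summed counts unless a value is said to be of single cells.

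Pancreatic tumours spread by the blood and by shedding into the abdominal cavity, and the spleen and the peritoneum confront the cells with different surroundings. The spleen is a blood filter rich in lymphocytes and red pulp macrophages. The peritoneum is lined by mesothelium and holds resident macrophages. Cells short of oxygen stabilise the HIF factors, which switch on glycolytic enzymes, glucose uptake and the vessel growth factor Vegfa.

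Depth was uneven between cells. Kept cells had 13361 to 12907900 RNA counts in spleen and 24242 to 14370200 in peritoneum, and the deepest single cell supplied 22% and 37.7% of the 2 spleen sums and 29.4% and 15.6% of the 2 peritoneum sums. The DNA medians were 284591 and 481555 reads per spleen cell and 294086 and 375165 per peritoneum cell. By their DNA reads, none of 565 pairs of kept cells within a site and mouse agreed within sampling noise, the lowest chi-square per degree of freedom being 2.81. In summed libraries, fewer cells of a type and less RNA per cell cannot be told apart.

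The sorted cells of both sites had abundant RNA of a mesenchymal filament gene and little of the epithelial markers. Vim, the mesenchymal filament vimentin, stood at 2817 and 1909 CPM in the spleen sums, against 1882 and 785 CPM in the peritoneum sums. Both spleen sums lay above both peritoneum sums, but the log2 difference of 0.89 had a standard error (SE) of 0.71 and an edgeR adjusted p of 1. Epcam, the epithelial adhesion molecule, stood at 2.45 and 3.02 CPM in spleen, against 0.583 and 2.01 CPM in peritoneum (log2 difference 1.51, SE 1.69, edgeR adjusted p = 1). Krt19, a ductal keratin, stood at 34.4 and 13.7 CPM in spleen, against 1.94 and 9.17 CPM in peritoneum (1.67, SE 1.20, edgeR adjusted p = 1). The leukocyte phosphatase Ptprc (CD45) was close to 0 at both sites, with 0.0866 and 1.84 CPM in spleen, against 3.86 and 3.06 CPM in peritoneum (-3.13, SE 2.36, edgeR adjusted p = 1). The 16 genes of a fibroblast and stellate list, collagens and matrix proteins that the tumour line itself may express, summed to 38630.0 and 12319 CPM in spleen, against 29447 and 10056 CPM in peritoneum.

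No gene passed the test between the sites. edgeR's quasi-likelihood test, with the mouse as a block and 8 sums of 4 GFP+ sites in the fit, called 0 of 20767 genes at an adjusted p under 0.05 (0%), while 791 (3.81%) had an unadjusted p under 0.05. DESeq2 on the same sums called 308 (1.48%), of which 173 were higher and 135 lower in spleen, and limma with each cell weighted alike called 0. The biological coefficient of variation was 0.980 with 3 residual degrees of freedom. Without a test, 2300 genes (11.1%) had both spleen sums above both peritoneum sums, and 2453 (11.8%) had both below, which is the background for the counts below. No gene of any of the 40 lists examined was called. Over all genes the median log2 difference was 0.04, and it lay between -0.21 and 0.18 under the alternatives that keep all 4 sums, and between -0.55 (without the spleen sum of mouse 3) and 0.27 (without the peritoneum sum of mouse 3) when 1 sum was left out.

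Genes of low oxygen and glycolysis had higher sums in spleen than in peritoneum, though no member passed the test. Of the 20 genes on the list, 10 had both spleen sums above both peritoneum sums and 0 had both below, against the 11.1% and 11.8% of all genes. The median log2 difference of the list was 1.12, and 4 of the 20 had an unadjusted edgeR p under 0.05. Within mouse 2, 14 of the 20 were higher in spleen, and within mouse 3, 16 of 20, against 43.9% and 52.4% of all genes. The spleen sums of mouse 3 lean on 1 cell. Cell 40, the deepest there with 37.7% of the counts, had a list total of 11773 CPM, against a median of 3338 CPM over the spleen cells of that mouse. Without the deepest cell of every sum, the median log2 difference of the list was 0.31.

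Vegfa, the growth factor that draws in vessels, stood at 96.2 and 109 CPM in the spleen sums, against 5.88 and 9.26 CPM in the peritoneum sums. The groups did not overlap, and the log2 difference was 3.79 (SE 1.47, edgeR adjusted p = 1). The cell with most Vegfa counts held 36.3% and 70.5% of the spleen counts, and 35.1% and 62.1% of the peritoneum counts. Single-cell medians kept the order, at 33.7 and 68.4 CPM in spleen cells, against 1.16 and 5.87 CPM in peritoneum cells. After each cell was thinned to 10000 counts, Vegfa was seen in 7 of 18 and 7 of 17 spleen cells, against 2 of 24 and 1 of 22 peritoneum cells.

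Pdk1, a mitochondrial kinase that inhibits pyruvate dehydrogenase, stood at 82.4 and 32.7 CPM in spleen, against 4.37 and 3.24 CPM in peritoneum, again without overlap (log2 difference 3.94, SE 1.70, edgeR adjusted p = 1). Its counts were spread over cells, 1 cell holding at most 36.9% and 23.2% in spleen and 54.4% and 23.1% in peritoneum, and the single-cell medians were 58.5 and 44.4 CPM in spleen, against 0 and 4.78 CPM in peritoneum. Ndrg1, a stress-induced differentiation gene, stood at 366 and 46.7 CPM in spleen, against 57.7 and 8.06 CPM in peritoneum. Here the low spleen sum fell below the high peritoneum sum, although spleen was above peritoneum within each mouse (2.63, SE 1.05, edgeR adjusted p = 1).

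The other members without overlap are named because of that property, after their values were seen. They were the glycolytic enzymes Pfkl, Aldoa, Pgk1, Eno1, Tpi1 and Gapdh, the oxygen-sensing hydroxylase Egln3, and the collagen hydroxylase P4ha2. Pfkl stood at 140.4 and 390.3 CPM in spleen, against 38.9 and 60.3 CPM in peritoneum. Aldoa stood at 422 and 1253 CPM in spleen, against 285 and 238 CPM in peritoneum, with 85% of the larger spleen sum in 1 cell. Bnip3, Hk2 and P4ha1, which belong to the same response, overlapped between the sites, and their log2 differences lay between -0.40 and 0.04. Car9, a surface carbonic anhydrase often used as a marker of low oxygen, was near 0 at both sites, with 0.368 and 1.14 CPM in spleen, against 0.559 and 0.419 CPM in peritoneum.

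The list was also read cell by cell, which gives every cell equal weight. Its summed level had medians of 3870.1 and 3338 CPM over the spleen cells of mice 2 and 3, against 2188 and 1169 CPM over the peritoneum cells. The ranges overlapped widely, from 643 to 11964 CPM in spleen cells and from 523 to 12074 CPM in peritoneum cells. With each cell alike, the median log2 difference of the 20 genes was 1.14, and it stayed positive under each of the 18 alternatives run, between 0.31 and 1.42. The lowest value, 0.31, came from leaving out the deepest cell of every sum. The sums of the list in the other GFP+ sites of these mice were 5501 and 8374 CPM in primary tumour and 7720 and 1961 CPM in kidney, beside 4404 and 4442 CPM in spleen and 2679.5 and 1852 CPM in peritoneum. The spleen sums lay within the spread of those 4 sums, and the lower peritoneum sum lay below it.

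**Figure D1:**
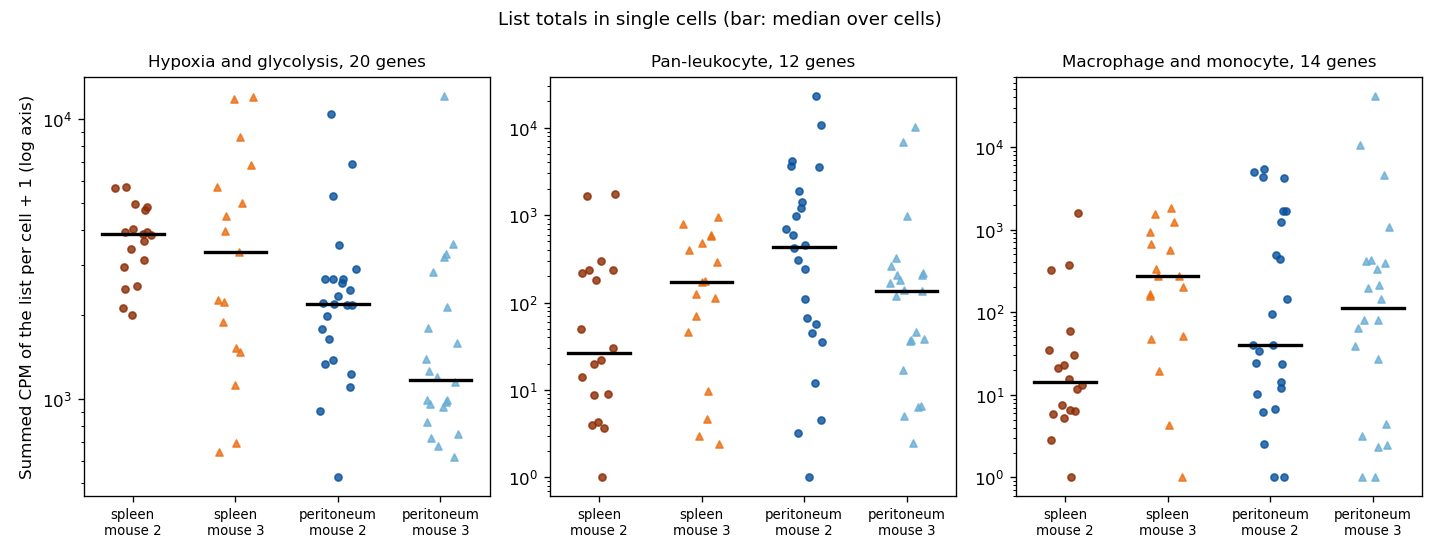
Summed CPM of 3 gene lists in each kept cell, plus 1, on a log axis, for spleen and peritoneum cells of mice 2 and 3; each point is a cell and each bar the median over cells. The hypoxia and glycolysis medians are 3870.1 and 3338 CPM in spleen cells, against 2188 and 1169 CPM in peritoneum cells, and the highest leukocyte and macrophage totals are in peritoneum cells.

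**Figure D2:**
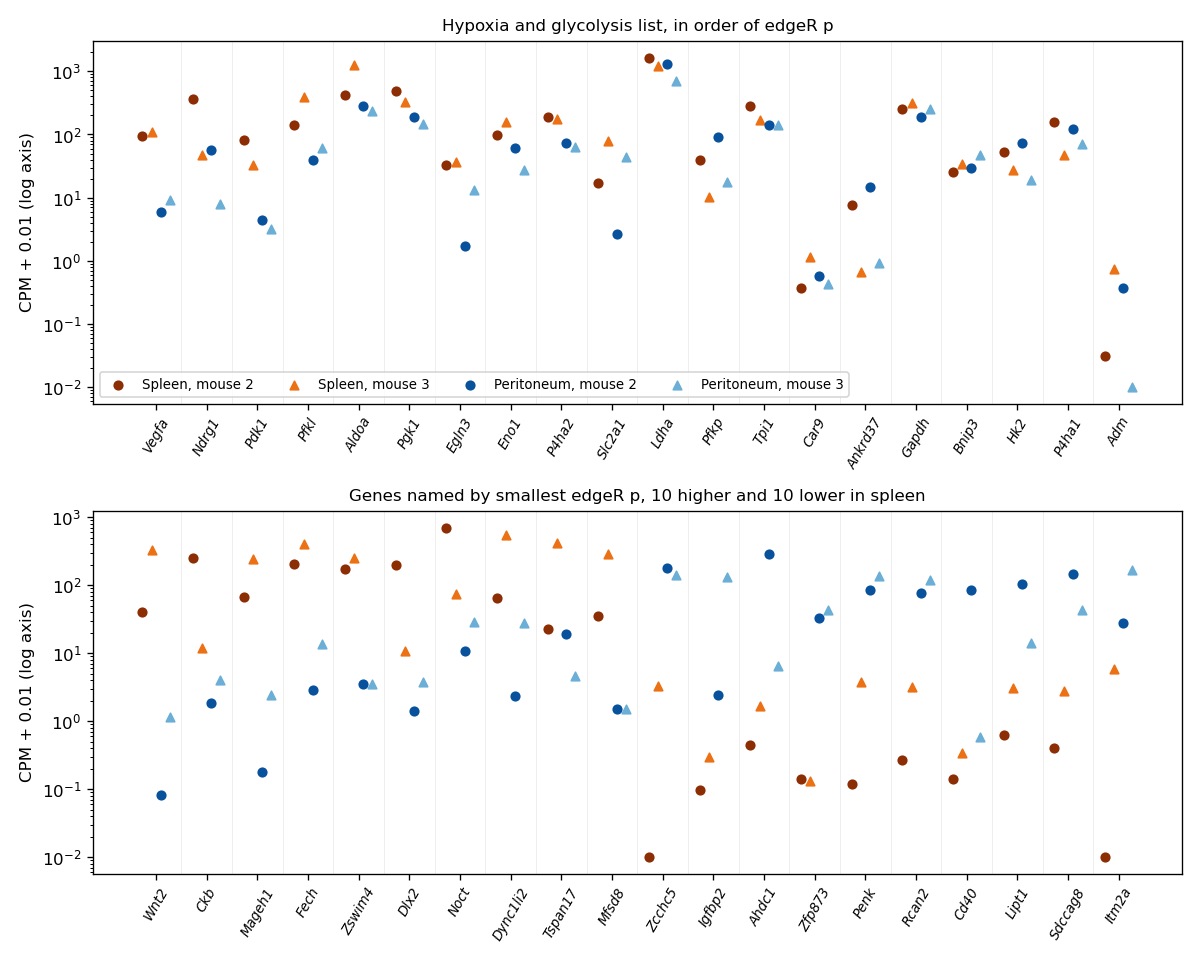
CPM plus 0.01 on a log axis in the 4 summed libraries, for the 20 hypoxia and glycolysis genes in order of edgeR p (top) and for 10 genes in each direction with the smallest edgeR p under the naming rule (bottom). The 2 spleen points lie above both peritoneum points for 10 of the 20 genes in the top panel, and no gene in either panel passed the edgeR test.

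Epithelial genes were scarce at both sites, and 15 of 20 had a positive log2 difference. The list total did not keep that direction in both mice. It was 474 and 202 CPM in spleen of mice 2 and 3, against 170 and 342 CPM in peritoneum. Of 20 genes, 9 had both spleen sums above both peritoneum sums and 0 both below, with a median log2 difference of 1.18, positive under each of the 18 alternatives (0.36 to 1.77). The tight-junction protein Ocln gave 19.5 and 0.694 CPM in spleen, against 0.243 and 0.449 CPM in peritoneum (log2 difference 5.14, SE 2.42, edgeR adjusted p = 1). All Ocln counts of the larger spleen sum came from 1 cell. Tff2, a trefoil peptide of gastric mucus counted with the classical tumour genes, stood at 0.108 and 9.84 CPM in spleen, against 0.219 and 0.0599 CPM in peritoneum (5.35, SE 2.57, edgeR adjusted p = 1), and rested on mouse 3. Spint2, a protease inhibitor of epithelia, stood at 1.97 and 11.7 CPM in spleen, against 1.31 and 0.809 CPM in peritoneum (2.87, SE 1.53, edgeR adjusted p = 1). Krt8, a simple-epithelium keratin, overlapped between the sites, with 108 and 15.3 CPM in spleen, against 53.2 and 121.6 CPM in peritoneum. In single cells the whole list summed to medians of 179 and 309.8 CPM in spleen, against 68.4 and 188 CPM in peritoneum.

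Integrins, the receptors that anchor cells to matrix and to other cells, showed a similar lean. Of 16 genes, 4 had both spleen sums above both peritoneum sums and 0 both below, against 11.1% and 11.8% of all genes. The median log2 difference was 1.03 (0.39 to 1.42 over the 18 alternatives). Within mouse 2 and within mouse 3, 10 of 16 were higher in spleen, against 43.9% and 52.4% of all genes, a small excess in mouse 3. Itgb1, the beta chain shared by most matrix integrins, stood at 555 and 338 CPM in spleen, against 179 and 127 CPM in peritoneum (log2 difference 1.53, SE 1.01, edgeR adjusted p = 1). The cell with most Itgb1 counts held 34.4% and 67.7% of the spleen counts, and 35% and 39.2% of the peritoneum counts. Single-cell medians of Itgb1 were 312 and 288 CPM in spleen, against 143 and 203 CPM in peritoneum. The others without overlap were Itga3, Itgb4 and Itgav, and Itgav, a chain of vitronectin receptors, stood at 107 and 40.9 CPM in spleen, against 24.2 and 24.3 CPM in peritoneum.

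Matrix and surface genes of the mesenchymal state were mixed. Tnc, the matrix protein tenascin-C, stood at 607 and 192 CPM in spleen, against 54.6 and 91 CPM in peritoneum (log2 difference 2.33, SE 1.12, edgeR adjusted p = 1). One cell held 99.2% and 91.8% of the 2 spleen sums, and with each cell alike the log2 difference was -0.99. S100a4, a calcium-binding protein tied to motility, stood at 242 and 55.5 CPM in spleen, against 923 and 378 CPM in peritoneum (-2.25, SE 0.98, edgeR adjusted p = 1), and with each cell alike its log2 difference was 0.66. Col6a1, a collagen VI chain, stood at 3505 and 954 CPM in spleen, against 558 and 392 CPM in peritoneum (2.23, SE 0.83, edgeR adjusted p = 1), and its single-cell medians of 567 and 981 CPM in spleen, against 305 and 372 CPM in peritoneum, kept the order. Sprr1a, a cornified-envelope protein induced by stress, stood at 305 and 70.8 CPM in spleen, against 16.4 and 8.09 CPM in peritoneum (3.65, SE 1.23, edgeR adjusted p = 1), with single-cell medians of 1.02 and 0 CPM in spleen, against 0.0696 and 1.76 CPM in peritoneum.

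Cytokine genes were found on both sides. Il33, an alarmin made by stroma and epithelium, stood at 4770.1 and 643 CPM in spleen, against 436 and 504 CPM in peritoneum, without overlap (log2 difference 1.87, SE 0.81, edgeR adjusted p = 1). Its single-cell medians were 343 and 307 CPM in spleen, against 49.9 and 37.5 CPM in peritoneum. Ccl7, a monocyte attractant, had single-cell medians of 274 and 155 CPM in spleen, against 20 and 41.7 CPM in peritoneum (sums 2670.1 and 182 CPM, against 325 and 173 CPM; 1.61, SE 0.71, edgeR adjusted p = 1). Il1b, a cytokine of activated myeloid cells, stood at 54.6 and 2.49 CPM in spleen, against 1130.1 and 6.89 CPM in peritoneum (-3.39, SE 1.19, edgeR adjusted p = 1). One cell held 58.3% of that high peritoneum sum.

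Energy and translation genes leaned toward peritoneum in the sums. Of 21 oxidative phosphorylation genes, 1 had both spleen sums above and 9 had both below the peritoneum sums, with a median log2 difference of -0.67. Cox7a2, a small subunit of cytochrome c oxidase, stood at 59.9 and 94.3 CPM in spleen, against 638 and 175 CPM in peritoneum (-2.07, SE 1.06, edgeR adjusted p = 1), and Cox5a, another subunit, stood at 76.3 and 27.3 CPM in spleen, against 265 and 112 CPM in peritoneum (-1.91, SE 1.13, edgeR adjusted p = 1). Atp5a1, the alpha subunit of ATP synthase, was the exception, at 1459 and 1092 CPM in spleen, against 745 and 723 CPM in peritoneum. Of 23 cytosolic ribosomal protein genes, 0 had both spleen sums above and 5 both below (median -0.51), and 21 of 23 were lower in spleen within mouse 2 but 13 of 23 within mouse 3. With each cell alike both medians had the opposite sign, at 0.09 for oxidative phosphorylation and 0.03 for ribosomal proteins. Both stayed below the median of all genes in that setting, 0.11.

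Proliferation genes did not keep 1 direction in the 2 mice. Of 28 genes, 18 were higher in spleen within mouse 2 and 4 within mouse 3, so the 2 pairs ran in opposite directions, which was not tested. The list summed to 5063 and 1124 CPM in spleen, against 3600.0 and 4495 CPM in peritoneum. Trp53, which encodes the tumour suppressor p53, stood at 528 and 45.3 CPM in spleen, against 260.2 and 125 CPM in peritoneum, and overlapped between the sites. Cdkn2a, a brake on the cell cycle, stood at 11.3 and 2.70 CPM in spleen, against 74.1 and 74.5 CPM in peritoneum (-3.86, SE 1.70, edgeR adjusted p = 1), with 69.9% and 94.9% of the peritoneum counts in 1 cell of each mouse.

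**Figure D3:**
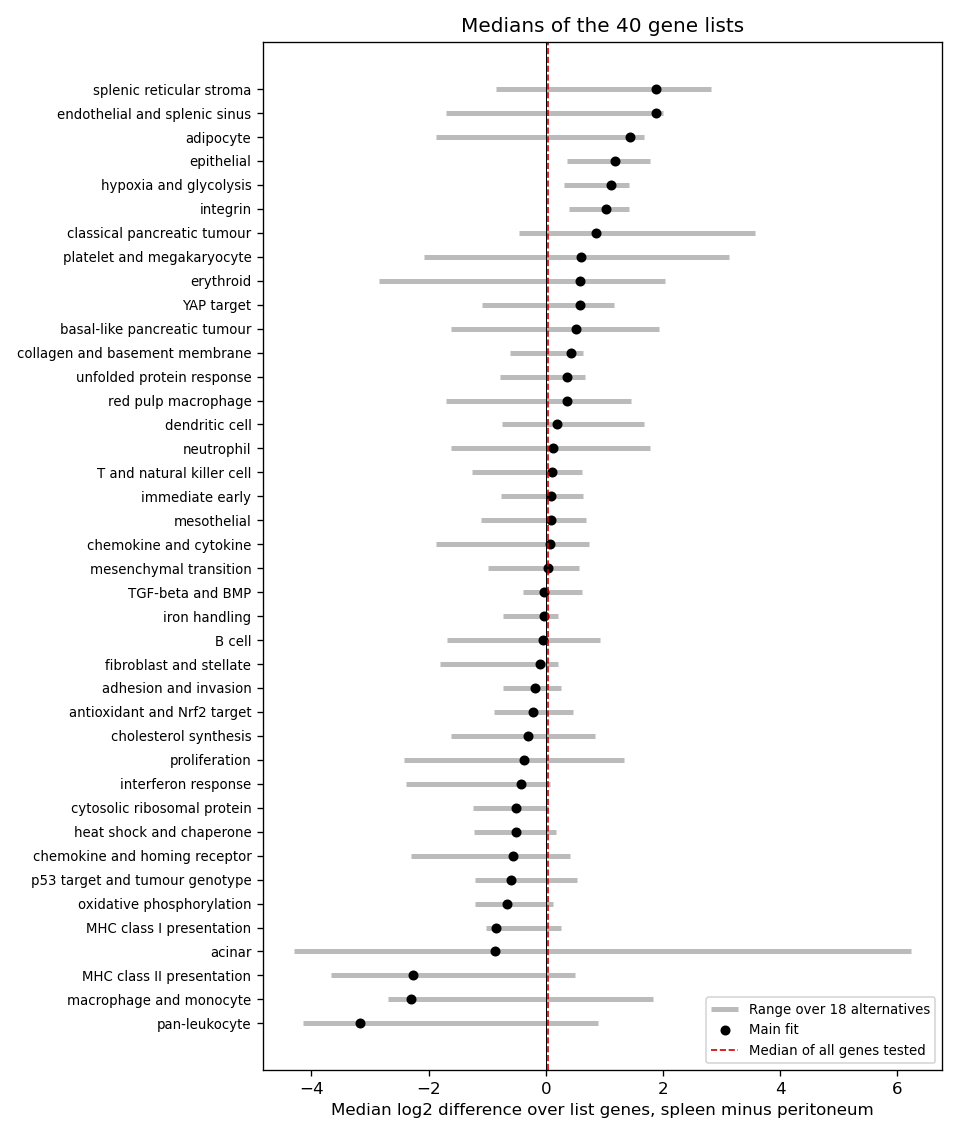
Median log2 difference, spleen minus peritoneum, over the genes of each of 40 lists: black points are the values with all 4 sums and edgeR, grey bars the range over 18 alternatives, and the dashed line the median of all genes (0.04). The grey bars of the epithelial, hypoxia and integrin lists stay above 0, and that of the pan-leukocyte list, the lowest median at -3.17, crosses it.

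The counts of the single genes with the smallest p values were mostly those of 1 cell per mouse. Wnt2, a secreted growth signal, stood at 40.2 and 331 CPM in spleen, against 0.0729 and 1.14 CPM in peritoneum (log2 difference 8.29, SE 1.92, edgeR adjusted p = 0.243). One cell held 99.2% and 96.8% of the 2 spleen sums, and 3 of 18 and 10 of 17 spleen cells had any count. Wnt2 was called with only the 4 spleen and peritoneum sums in the fit (8.65, edgeR adjusted p = 0.00557), and Ckb without the 3 cells with Y-chromosome DNA described further on (6.80, edgeR adjusted p = 0.0213). Ckb, brain-type creatine kinase, stood at 253 and 11.8 CPM in spleen, against 1.82 and 3.98 CPM in peritoneum (5.24, SE 1.24, edgeR adjusted p = 0.243), with 85% and 93.1% of the spleen counts in 1 cell. Mageh1 stood at 67.3 and 238 CPM in spleen, against 0.170 and 2.43 CPM in peritoneum (8.14, SE 1.97, edgeR adjusted p = 0.243), again with 93.5% and 96.8% in 1 cell.

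Fech, the enzyme that inserts iron into haem, was carried by more cells in mouse 2 than the genes above. It stood at 204 and 407 CPM in spleen, against 2.84 and 13.5 CPM in peritoneum (log2 difference 5.31, SE 1.40, edgeR adjusted p = 0.645), and 1 cell held 41.5% of the spleen sum in mouse 2 and 94.2% in mouse 3. Zswim4 stood at 175 and 247 CPM in spleen, against 3.55 and 3.56 CPM in peritoneum (5.93, SE 1.60, edgeR adjusted p = 0.708), with 96.8% and 90.2% of the spleen counts in 1 cell of each mouse. The other genes named for spleen were Dlx2, Noct, Dync1li2, Tspan17 and Mfsd8. In mouse 3 the spleen cell with most counts of Wnt2, Mageh1, Fech and Zswim4 was the same, cell 40, the deepest of its sum. Cell 40 also held 94.6%, 92.3% and 96.4% of the Dync1li2, Tspan17 and Mfsd8 counts, and 70.5% of the Vegfa counts. For Ckb, Dlx2 and Noct the top cells were 42, 43 and 29. In mouse 2, cell 11 held most spleen counts of Wnt2, Ckb, Zswim4 and Noct.

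In the other direction, Zcchc5 stood at 0 and 3.23 CPM in spleen, against 180.4 and 140.7 CPM in peritoneum (edgeR adjusted p = 0.645). Its log2 difference was -6.15 (SE 1.61), and 11 of 24 and 8 of 22 peritoneum cells had counts, against 0 of 18 and 4 of 17 spleen cells. Penk, the precursor of the enkephalin peptides, stood at 0.108 and 3.76 CPM in spleen, against 85 and 138 CPM in peritoneum (log2 difference -6.27, SE 1.89, edgeR adjusted p = 1), and 1 cell held 98.3% of the larger sum. Igfbp2, a carrier of insulin-like growth factors, stood at 0.0866 and 0.286 CPM in spleen, against 2.40 and 129.7 CPM in peritoneum (-8.22, SE 2.39, edgeR adjusted p = 1), where 1 cell held 99.5% of the larger sum. Thy1, a surface glycoprotein of fibroblasts and T cells, stood at 0.108 and 0.245 CPM in spleen, against 14.1 and 3.17 CPM in peritoneum (-5.60, SE 2.40, edgeR adjusted p = 1). In the peritoneum of mouse 2, 4 of 24 cells had Thy1 counts and 1 cell held 96.9% of them. Postn, the matrix protein periostin, stood at 102 and 11.2 CPM in spleen, against 775 and 58.5 CPM in peritoneum, overlapping between mice but lower in spleen within each (-2.65, SE 0.99, edgeR adjusted p = 1). One cell of each mouse held 85.3% and 50.8% of the peritoneum Postn counts. Ahdc1 stood at 0.433 and 1.67 CPM in spleen, against 287.5 and 6.53 CPM in peritoneum (-7.18, SE 2.12, edgeR adjusted p = 1), with 95.5% of the larger sum in 1 cell. The other genes named for peritoneum were Zfp873, Rcan2, Cd40, Lipt1, Sdccag8 and Itm2a.

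Leukocyte RNA had the lowest median log2 difference of the 40 lists, although no member passed the test. All 12 pan-leukocyte genes had a negative log2 difference (median -3.17), 4 with both spleen sums below both peritoneum sums and 0 above. Within mouse 2, 12 of 12 were lower in spleen, and within mouse 3, 9 of 12. In single cells the list summed to medians of 25.2 and 169 CPM in spleen, against 436 and 136 CPM in peritoneum, so the order of the medians differed between the mice. Fcer1g, a signalling chain of Fc receptors, stood at 5.30 and 25.8 CPM in spleen, against 109.8 and 61.9 CPM in peritoneum (-3.36, SE 1.56, edgeR adjusted p = 1). Laptm5, a lysosomal protein of blood cells, stood at 0.715 and 11 CPM in spleen, against 6.27 and 194 CPM in peritoneum (-3.43, SE 1.43, edgeR adjusted p = 1), and Rac2, a blood-cell GTPase, at 5.78 and 1.27 CPM in spleen, against 99.8 and 3.80 CPM in peritoneum (-3.62, SE 1.46, edgeR adjusted p = 1). In the peritoneum of mouse 3, cell 92 held 97.7% of the Fcer1g counts and cell 88 held 89.6% of the Laptm5 counts. The largest share of 1 cell there was 40.2% for Rac2. In the peritoneum of mouse 2 it was 44.4%, 67.8% and 47.8% for Fcer1g, Laptm5 and Rac2.

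Macrophage genes had 12 of 14 negative log2 differences and a median of -2.30. Without overlap 1 gene lay above and 2 below, against 11.1% and 11.8% of all genes. With each cell alike the median was -0.05, and that of the pan-leukocyte list -0.64. In single cells the macrophage list summed to medians of 13.3 and 275 CPM in spleen, against 39.2 and 112 CPM in peritoneum. The order of these medians thus differed between the mice. Fcgr3, a receptor for antibodies on phagocytes, stood at 9.07 and 1.51 CPM in spleen, against 199 and 18.4 CPM in peritoneum (log2 difference -4.31, SE 1.5, edgeR adjusted p = 1). The complement genes C1qa and C1qb had their highest sums in the peritoneum of mouse 3. C1qa stood at 0.152 and 1.02 CPM in spleen, against 1.48 and 89.8 CPM in peritoneum (-4.84, SE 1.97, edgeR adjusted p = 1), and C1qb at 0.411 and 15.9 CPM in spleen, against 0.971 and 237 CPM in peritoneum (-3.19, SE 1.5, edgeR adjusted p = 1). Cd74, the chaperone of MHC class II, stood at 2.21 and 16.7 CPM in spleen, against 45.1 and 20.1 CPM in peritoneum (-2.72, SE 1.58, edgeR adjusted p = 1). In the peritoneum of mouse 3, cell 88 held 77.9% of the C1qa counts. Cell 92 held 66.7%, 51.8% and 57.3% of the Fcgr3, C1qb and Cd74 counts. In the peritoneum of mouse 2, cell 48 held 60.2% of the Fcgr3 counts and cell 36 held 75.7% of the Cd74 counts. Cell 48 also held 61.09% and 63.65% of the counts of the neutrophil receptor genes Csf3r and Cxcr2 there, so its Fcgr3 is not particular to macrophages. The neutrophil list summed to 159 and 24.5 CPM in spleen, against 818 and 84.4 CPM in peritoneum. Its median log2 difference was 0.12, with 5 genes positive and 5 negative.

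A pan-leukocyte total of at least 1000 CPM, a limit chosen after the values were seen, was reached by 2 of 18 and 0 of 17 spleen cells, against 8 of 24 and 2 of 22 peritoneum cells. Over both mice that is 5.71% of spleen cells (exact 95% interval 0.700 to 19.2%) and 21.7% of peritoneum cells (10.9 to 36.4%), intervals that overlap and cover counting error only. Reaching the limit does not mark a cell as a leukocyte. In mouse 2, peritoneum cell 56 had 0 CPM of Ptprc, Fcer1g and the macrophage list. Peritoneum cell 38 had 0.487 CPM of Fcer1g beside 15714 CPM of Col1a1, and spleen cell 12 had 53963 CPM over the fibroblast list. Peritoneum cells 48, 50 and 60 of that mouse had 664, 2726 and 973 CPM of Fcer1g. Among kept cells, the highest pan-leukocyte totals were 1743 CPM in spleen (cell 10 of mouse 2) and 22894 CPM in peritoneum (cell 36 of mouse 2). That peritoneum cell had only 24242 RNA counts, of which MHC class II genes made 188790 CPM, and its 4384 DNA reads were below the limit for a profile. Lists for cells that reside in the spleen were low in the spleen sums. B-cell, dendritic, erythroid, platelet, sinus endothelial and reticular stroma lists each summed to at most 57 CPM there. The red pulp macrophage list summed to 528 and 140 CPM, against 332 and 209 CPM in peritoneum. The reticular stroma list summed to 45.8 and 25.6 CPM in spleen, against 3.25 and 10.7 CPM in peritoneum. The sinus endothelial list summed to 10.8 and 33.7 CPM, against 50.5 and 18.4 CPM. The median log2 differences of these 2 lists, 1.89 and 1.87, were the highest of the 40 lists. Without the spleen sum of mouse 3 they were -0.85 and -0.41. Medians of the B-cell, dendritic, erythroid and platelet lists lay between -0.05 and 0.60.

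The DNA of the same tubes gave each cell a chromosome profile. Reads were counted in 5000 bins of the mm9 genome, and a chromosome's level is its share of a cell's autosomal reads divided by the median share in 53 CD45+ cells of the primary tumours. Spleen and peritoneum cells shared a profile in which chromosomes 2, 3, 5, 11, 17 and 19, among others, stood above the CD45+ level and 4, 10, 12, 13 and 14, among others, below it in all 4 mouse and site means. Chromosome 2 had levels of 1.24 and 1.39 in spleen, against 1.28 and 1.30 in peritoneum. Chromosome 14 had 0.710 and 0.737 in spleen, against 0.721 and 0.731 in peritoneum. Chromosome 19 was higher in mouse 2 than in mouse 3 at both sites, with 1.42 and 1.07 in spleen of mice 2 and 3, against 1.43 and 1.19 in peritoneum.

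No chromosome passed the test between the sites. limma called 0 of 20 chromosomes (0%) at an adjusted p under 0.05, and 0 had an unadjusted p under 0.05. The smallest p belonged to chromosome 18, with levels of 0.789 and 0.733 in spleen, against 0.840 and 0.808 in peritoneum, a log2 difference of -0.11 (SE 0.05, limma adjusted p = 0.737). The X chromosome had 1.11 and 1.00 in spleen, against 1.06 and 0.862 in peritoneum (0.14, SE 0.09, limma adjusted p = 0.737). The other 18 log2 differences lay between -0.10 and 0.08. Under the 13 alternatives the smallest adjusted p was 0.144, for reads summed over cells, where 2 chromosomes had an unadjusted p under 0.05, and 0 chromosomes were called.

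**Figure D4:**
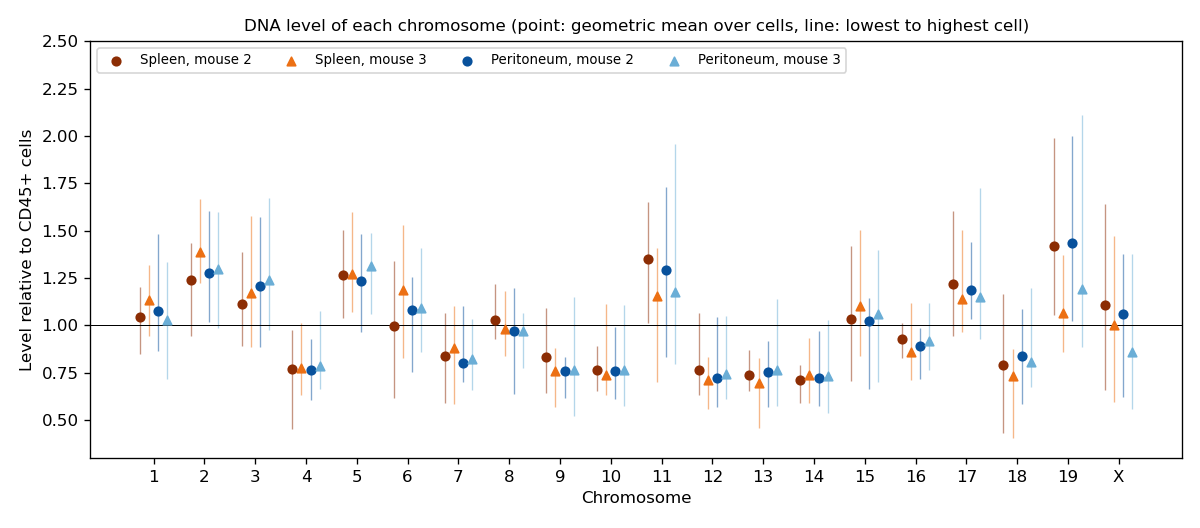
DNA level of the 19 autosomes and X relative to CD45+ cells, for spleen and peritoneum cells of mice 2 and 3: points are geometric means over cells and lines run from the lowest to the highest cell. The 4 points of a chromosome lie close together against the spread of the cells, and 0 of the 20 chromosomes passed the limma test.

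Each cell's autosome profile was correlated with the mean profile of GFP+ primary tumour cells, as a description over 19 chromosomes. The medians were 0.790 and 0.764 in spleen cells, against 0.828 and 0.806 in peritoneum cells, and the lowest cells were 0.496 and 0.616 in spleen, against 0.681 and -0.339 in peritoneum. CD45+ cells had a median of -0.008. The spread of a profile was taken as the SD of its 19 levels, and medians were 0.273 and 0.251 in spleen, against 0.260 and 0.263 in peritoneum, with 0.0538 in CD45+ cells. Against the 95th percentile of CD45+ cells (0.275), 6 of 13 and 2 of 16 spleen cells lay beyond, against 8 of 17 and 8 of 22 peritoneum cells. The limit moves with a few CD45+ cells whose SD reached 0.410, and at their 90th percentile (0.179) the counts were 12 of 13 and 16 of 16 in spleen, against 17 of 17 and 20 of 22 in peritoneum. The spleen cell inside the lower limit, cell 29 of mouse 2, had 54948 DNA reads, a profile SD of 0.172 and a correlation of 0.496. It had too few RNA counts (8367) to be kept. In those counts its pan-leukocyte list summed to 5139 CPM and its macrophage list to 3227 CPM, so a leukocyte-rich cell inside this limit was seen in spleen too.

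The 2 peritoneum cells inside the lower limit were cells 88 and 92 of mouse 3, both with a pan-leukocyte total above 1000 CPM. Cell 92 had a profile SD of 0.0755, a correlation with the tumour profile of -0.339, 13627 CPM of the lysozyme gene Lyz2 and 41223 CPM over the macrophage list, with 152 CPM over the fibroblast list. Cell 88 had a profile SD of 0.108, a correlation of 0.171, 10283 CPM of leukocyte genes and 4130.0 CPM of C1qa. Laptm5 alone made 10240 CPM of that leukocyte total, and Ptprc, Fcer1g and Lyz2 stood at 8.84, 12.4 and 14.1 CPM in this cell. By contrast, leukocyte totals of 3643, 1909 and 3565 CPM stood in peritoneum cells 37, 47 and 60 of mouse 2, whose profiles correlated with the tumour at 0.910, 0.855 and 0.867. Whether those tubes held material of more than 1 cell was not tested.

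The Y chromosome separated a few peritoneum cells from the rest. Host mice were male, and the Y level, reads per Y bin over reads per autosomal bin, had a median of 0.504 in CD45+ cells. It was at least 0.3 in 0 of 29 spleen cells (exact 95% interval 0 to 11.9%; a count of 0 allows up to 10.3%) and in 3 of 39 peritoneum cells (7.69%, 1.62 to 20.9%). The highest spleen cell had 0.0585. The 3 peritoneum cells were 88 and 92 of mouse 3, with 0.617 and 0.563, and cell 54 of mouse 2, with 0.499. Cell 54 combined Y reads with a tumour-like profile, its correlation being 0.819 and its profile SD 0.234.

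**Figure D5:**
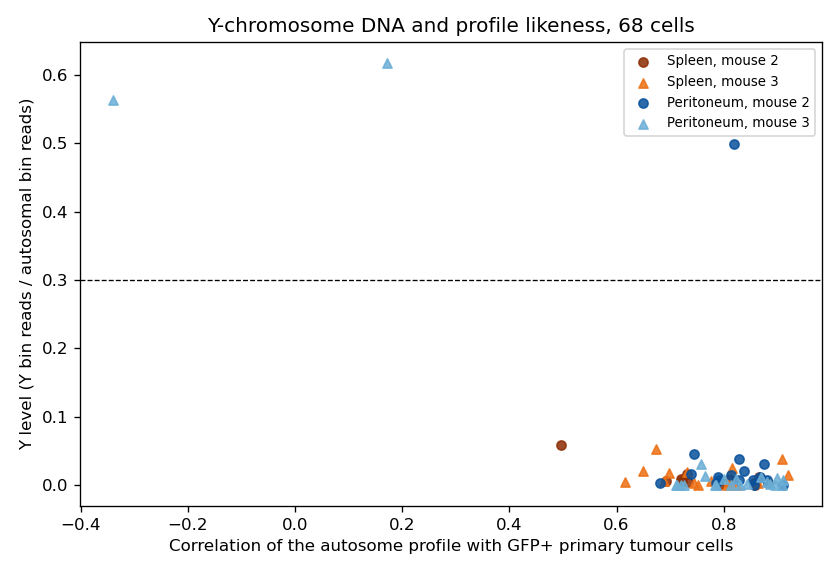
Y-chromosome level of each of 68 cells against the correlation of its autosome profile with GFP+ primary tumour cells; the dashed line marks a level of 0.3. The 29 spleen cells lie at or below 0.0585, and 3 of 39 peritoneum cells lie above the line, 2 of them with correlations of 0.171 and -0.339.

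At the scale of bins, limma called 4 of 5000 (0.08%), all lower in spleen. Of these, 3 were the Y bins, with log2 differences of -4.44, -3.59 and -3.23 (limma adjusted p = 1.63e-16, 2.58e-15 and 2.97e-12). These p-values rest on 2 mice and on a spread that limma borrows in part from all 5000 bins, whatever their read depth. The Y bins held between 2 and 24 reads in a spleen sum, against 778 and 1596 in the fourth bin called. The size of these p-values is therefore no measure of the spread between mice at the Y bins. The first Y bin held 2 and 15 reads in spleen, against 234 and 108 reads in peritoneum, and 98.3% of the reads of mouse 2 were from cell 54 and 61.1% of those of mouse 3 from cell 92. Without the 3 cells with Y reads no Y bin was called, the log2 differences being -0.44, 0.05 and 0.68. The fourth was on chromosome 18, from 69523448 to 69968734 in mm9, with levels per autosomal bin of 0.659 and 0.777 in spleen, against 2.54 and 1.08 in peritoneum (-1.21, SE 0.28, limma adjusted p = 0.0464). There 1 peritoneum cell, cell 38 of mouse 2, held 54.9% of that mouse's reads, and without it the level was 1.19.

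The macrophage difference in RNA had the opposite sign without those cells. Without the 3 cells with Y reads, the median log2 difference of the macrophage list was 0.47, against -2.30 with them, and that of the pan-leukocyte list was -1.87, against -3.17. The hypoxia list was at 1.11 without them, and the epithelial and integrin lists at 1.43 and 1.15. Without the peritoneum sum of mouse 2 the pan-leukocyte median was -0.43, and among cells beyond the CD45+ limit it was 0.88.

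Cells of the 2 sites were about as alike as cells of 1 site. After thinning to 10000 counts, the median correlation of log2 counts between a spleen and a peritoneum cell was 0.431 in mouse 2 and 0.355 in mouse 3. Between 2 spleen cells it was 0.491 and 0.374, and between 2 peritoneum cells 0.413 and 0.342, so the value across sites lay between the values within them in each mouse. At equal depth spleen cells showed medians of 2737 and 3001 genes, against 2080.0 and 2552 genes in peritoneum cells.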

How the data were processed

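The RNA table deposited by the authors holds expected counts per gene and cell, and the DNA table deposited by the authors holds read counts per genomic bin; per the labels, reads in exons were taken as RNA and the others as DNA. The submitters' processing notes name STAR, kallisto, Bowtie 1.0 and mm9, with no roles. Of the RNA values, 97.4% were whole, and sums were rounded. Spike-ins (92 rows with 0.000361% of all counts) and 4 duplicated gene symbols did not enter, which left 24424 genes. The 6 bulk samples' columns were not used. No spleen cells of mouse 1 were analysed here, and its other sites entered 1 alternative; no doublet caller was run on the sorted cells.

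Counts were summed over kept cells per mouse and site and tested with edgeR 4.0.16 (TMM, filterByExpr, quasi-likelihood test, Benjamini-Hochberg at 0.05 over all genes tested) with site and mouse as terms, over primary tumour, peritoneum, kidney and spleen. Liver was left out because 1 cell gave most of a sum. Chromosome and bin shares (0.5 read added) were tested with limma 3.58.1. DESeq2 1.42.0, R 4.3.3 and Python 3.11.15 were also used, and the fits were tested on simulated data. Mouse numbers mark the same animal per the labels. Deviations of same-mouse sums from their site means correlated at a median of 0.0536 (-0.174 to 0.244), and at 0.222 for spleen with peritoneum. With 2 mice the deviations at a site are mirror images. Mouse 2 and mouse 3 therefore give the same values and are not separate checks of the pairing.

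The members and gene lists were chosen with earlier results of these data known. Named were Ptprc, Epcam, Krt19 and Vim; in each direction 10 genes, called ones by size and the rest by smallest p, with at least 10 CPM on average and the same direction in both mice, leaving out predicted and Y-linked genes; and up to 3 members per list by smallest p. Others were named after their values were seen. Amplified reads are not independent molecules, so intervals and floors cover counting error only. Alternatives concerned scaling, filters, cells, weights, samples and pairing. Y-based alternatives and the profile correlation were added after seeing the data.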

Additional observations from a re-analysis of the deposited data

How the results depend on the processing

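The edgeR count of 0 genes became 308 with DESeq2, 5 on library totals without TMM, 1 with only the 4 spleen and peritoneum sums and the mouse as a block, 1 with mouse 1 added, and 1 without the 3 cells with Y reads (added after seeing the data); it ran from 0 to 6 when a mouse of either site was left out, the 6 arising without the spleen sum of mouse 3. It was 0 under the other alternatives, including no replicate block (0 called). The count of 0 chromosomes held under all 13 alternatives. The count of 4 bins was 3 with no replicate block, 3 with 200000 reads, 3 as shares of autosomal reads (added after seeing the data), 1 without cells with Y reads, and 0 to 5 when a sum was left out, being 0 without either spleen sum. The share of cells beyond the CD45+ limit was 46.2% and 12.5% in spleen, against 47.1% and 36.4% in peritoneum. It was 0% in all 4 with the highest CD45+ cell as the limit; 92.3% and 100% in spleen, against 100% and 90.9% in peritoneum, at the 90th percentile; and 100% and 100%, against 100% and 89.5%, with 200000 reads. The cause of these shifts was not tested.

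Of 39 genes with a printed log2 difference, 694 values under alternatives gave 657 with the same direction and call, 21 newly called and 16 with the opposite sign. Among cells beyond the CD45+ limit these were C1qa (4.78), C1qb (2.32), Cd74 (0.30), Fcer1g (3.18), Il33 (-0.32), Laptm5 (2.92), Tnc (-1.24) and Vim (-0.29). With each cell alike they were S100a4 (0.66 with 1 CPM added, 0.98 with 0.1), Tnc (-0.99 and -1.46) and, with 0.1 CPM added, Fcer1g (0.25) and Ocln (-0.012). Without cells with Y reads it was C1qb (0.84), and without spleen of mouse 3 it was Tff2 (-0.90, and 7.06 without spleen of mouse 2). With 2 mice per site, SEs of the printed log2 differences reached 2.57, which limits what could be detected.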
